A study of Mus musculus with 8 samples.

Results

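Immediate early genes are transcribed within minutes of a signal, without new protein synthesis, and many encode transcription factors or proteins that switch the same signal off again. Signals through mitogen-activated protein (MAP) kinases act on serum response factor and CREB at promoters such as that of Fos, whose product pairs with Jun proteins to form the transcription factor AP-1. Signals through Toll-like or tumour necrosis factor receptors release NF-kB from its inhibitor IkB-alpha, the product of Nfkbia, and NF-kB then induces Nfkbia itself, the ubiquitin-editing enzyme A20 (Tnfaip3) and other brakes. In monocytes and their bone marrow precursors these genes answer microbial products and cytokines, and they also respond to the handling of cells during isolation.

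The module described here holds 34 such genes, chosen by name: the AP-1 subunits Fos, Fosb, Fosl2, Jun, Junb and Jund, the AP-1 partners Atf3 and Maff, the zinc-finger factors Egr1, Egr2 and Egr3, the early regulators Ier2, Ier3, Ier5, Csrnp1, Btg1, Btg2, Gadd45b, Ppp1r15a, Rhob, Per1 and Sik1, the signal inhibitors Dusp1, Dusp2, Dusp5 and Socs3, the NF-kB and mRNA feedback genes Nfkbia, Nfkbid, Nfkbiz, Tnfaip3 and Zfp36, and the products Tnf, Cxcl1 and Ptgs2. All 34 were found among the 48709 genes of the expression table. Of these, 32 passed the filter of at least 1 TPM in at least 2 libraries, as did 13126 genes in all. TPM is a share of all transcripts, corrected for transcript length, so levels can be compared between genes. Egr3, at 0 to 0.36 TPM, and Cxcl1, at 0 to 0.93 TPM, did not pass. A further limit concerns 8 members (Jun, Junb, Jund, Csrnp1, Ppp1r15a, Dusp1, Dusp5 and Zfp36), which share exonic positions with a gene on the opposite strand. Whether the counting used strand is not given in the sources used here, so for these 8 reads of both genes may be mixed.

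Polyadenylated RNA of healthy mouse bone marrow was sequenced in 8 libraries. They comprise 1 library of MDP (monocyte-dendritic cell progenitors, tagged wild type), 2 of cMoP (common monocyte progenitors) and 2 of Ly6Chi monocytes, 1 of Ly6Clo monocytes (tagged wild type), and 2 of Ly6Chi monocytes labelled as a knockout of Upf2, a core factor of nonsense-mediated mRNA decay. The cMoP and Ly6Chi controls are tagged wild type but described as FL_FL, the usual notation for floxed alleles, and no stimulus is named for any group. The study asked how intron retention changes along monocyte differentiation. The labels name no Cre driver, age or sex, do not say whether replicates are separate animals, and give the cell type as a monocytic cell line although the source is bone marrow and the protocol calls the cells primary.

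Each library held 34353668 to 44104702 spliced reads over the listed introns and 11106 to 12635 genes at 1 TPM or more. Most defining markers followed the labels. Flt3, the receptor of early progenitors, was at 197 TPM in MDP and at most 10.3 TPM elsewhere. The granule protein markers summed to 26193 and 24903 TPM in cMoP and to at most 6335 TPM in the other libraries. Ly6Chi monocyte markers summed to 44668 and 46737 TPM in the control Ly6Chi libraries, of which Lyz2 made up 36103 and 38197 TPM. Ly6c2 itself did not separate them from cMoP (3439 and 4057 against 4875 and 3518 TPM), whereas Fn1 (3061 and 2444 against 15.6 and 6.09 TPM) and Ccr2 (1401 and 1357 against 129 and 74.1 TPM) did. In the knockout libraries the Ly6Chi markers summed to 27803 and 28234 TPM, with Lyz2 at 20168 and 19792 TPM and Ccr2 at 656 and 883 TPM. The same sum was 22749 TPM in Ly6Clo, with Lyz2 at 22059 TPM. Ly6Clo markers summed to 6466 TPM in Ly6Clo. Upf2 itself stood at 20.4 and 22.4 TPM in the knockout libraries, against 20.2 and 18.2 TPM in the control Ly6Chi libraries. Spliced reads over its second intron numbered 10 and 13 in the knockout and 16 to 59 in the other libraries, 41 and 45 of them in the control Ly6Chi libraries. Over the first intron there were 14 and 38 against 17 to 60, and over the third 26 and 66 against 41 to 100, so that knockout replicate 2 overlapped the other libraries at both, and the check of the label rests on 1 junction with few reads. Coverage leaned towards the 3′ end to different degrees: late against early introns of a gene had a median log2 ratio of spliced reads of 0.34 in MDP, 0.57 and 0.83 across cMoP, 0.32 and 0.38 across Ly6Chi, 0.34 for Ly6Clo, and 0.77 and 0.55 across knockout libraries. In each group with 2 libraries, 1 stood above the other in nearly the whole module, namely cMoP replicate 1, Ly6Chi replicate 2 and knockout replicate 1, and the group values carry that spread.

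Promoter sequences were searched for motifs of the factors named above. Of the members, 29 matched RefSeq promoter windows (GRCm38.p6, 250 bases before to 50 after a start, 42 windows in all). Shown are the 250 bases before the start of Fos, the founding AP-1 gene, of Nfkbia, the classical NF-kB feedback gene, and of Btg2 and Dusp5, which stand for members that differ between stages below. The capitals mark matches, on either strand, to TGACG (part of the cAMP response element, CRE) and TATAAA in Fos, to a strict kappa B motif (GGG, any 2 bases, TTTCC) in Nfkbia, to the whole CRE TGACGTCA in Btg2, and to the same kappa B motif, 2 CArG boxes (the motif of serum response factor) and TGACG in Dusp5, where the kappa B match and the first CArG box overlap. The sequences lie on chromosome 12 at 85473640 to 85473889 on the plus strand (Fos), chromosome 12 at 55492648 to 55492897 on the minus strand (Nfkbia), chromosome 1 at 134079156 to 134079405 on the minus strand (Btg2) and chromosome 19 at 53528895 to 53529144 on the plus strand (Dusp5), and each reads 5′ to 3′.
Fos: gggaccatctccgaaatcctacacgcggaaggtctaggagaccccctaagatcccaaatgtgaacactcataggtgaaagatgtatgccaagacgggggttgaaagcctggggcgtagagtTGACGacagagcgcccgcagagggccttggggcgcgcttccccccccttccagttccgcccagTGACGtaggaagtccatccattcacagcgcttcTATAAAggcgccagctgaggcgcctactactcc
Nfkbia: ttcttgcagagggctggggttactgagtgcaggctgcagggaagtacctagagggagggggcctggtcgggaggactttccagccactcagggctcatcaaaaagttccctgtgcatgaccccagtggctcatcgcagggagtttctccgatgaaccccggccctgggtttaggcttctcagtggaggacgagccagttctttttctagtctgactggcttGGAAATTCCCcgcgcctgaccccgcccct
Btg2: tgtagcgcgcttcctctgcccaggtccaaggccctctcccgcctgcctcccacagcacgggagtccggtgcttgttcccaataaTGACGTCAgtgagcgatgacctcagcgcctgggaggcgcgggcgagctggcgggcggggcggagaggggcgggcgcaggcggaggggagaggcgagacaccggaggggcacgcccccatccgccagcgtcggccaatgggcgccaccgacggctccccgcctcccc
Dusp5: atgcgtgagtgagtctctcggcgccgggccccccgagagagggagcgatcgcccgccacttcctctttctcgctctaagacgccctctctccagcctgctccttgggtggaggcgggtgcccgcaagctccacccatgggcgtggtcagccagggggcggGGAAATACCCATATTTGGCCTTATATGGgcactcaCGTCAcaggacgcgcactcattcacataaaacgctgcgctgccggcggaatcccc
Over the 42 member windows, TGACG was present in 59.5% (18 genes) and in 20.8% of all 32851 windows. The whole CRE, TGACGTCA, was present in 11.9% of member windows (5 genes) against 1.79% of all windows, and the CArG box in 14.3% (3 genes, Dusp5, Egr2 and Zfp36) against 1.63%. A loose kappa B motif (GGG, any 5 bases, CC) was found in 78.6% of member windows and 50.8% of all windows. The strict kappa B motif, chosen after the data had been seen, was found in 9.52% (4 genes) and 1.63%. TATAAA was found in 19.0% of member windows (8 genes) against 13.6%, the AP-1 motif TGANTCA in 4.76% against 7.81%, and the EGR motif GCGTGGGCG in 2.38% against 0.612%. These shares describe letters in the windows, several of which belong to one gene and overlap, and were not tested. Most of the 6 windows with a CArG box were those of Egr2, and Egr1 had no window. Sites more than 250 bases before a start were outside the search, so the lack of a CArG match for Fos holds only for its window.

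Between cMoP and Ly6Chi monocytes, the AP-1 genes Fosl2, Junb and Fos, the partner Atf3, the growth restraining genes Btg1 and Btg2, and the feedback genes Socs3, Nfkbiz, Nfkbia, Tnfaip3 and Zfp36 rose. In all, 14 of 32 members tested were higher in Ly6Chi and 1, Dusp2, was lower. Leaving out Ly6Chi replicate 2 left 7 higher, leaving out cMoP replicate 2 left 8, and omitting the filter on low values left 7. Of all genes tested, 32.3% were higher and 23.3% lower by the same rule, an adjusted p under 0.05 in limma. The members' share called higher, 43.8%, is thus 1 among many changes at this step, and their median difference on log2(TPM + 1) was 1.14 against 0.19 over all genes tested. With each library centred on its median gene, 3354 genes were higher and 4462 lower in place of 4235 and 3053, the median over all genes moved to −0.14, and 12 members were higher and 1 lower. In these bulk samples, fewer cells of a type and less RNA per cell cannot be told apart.

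**Figure D1:**
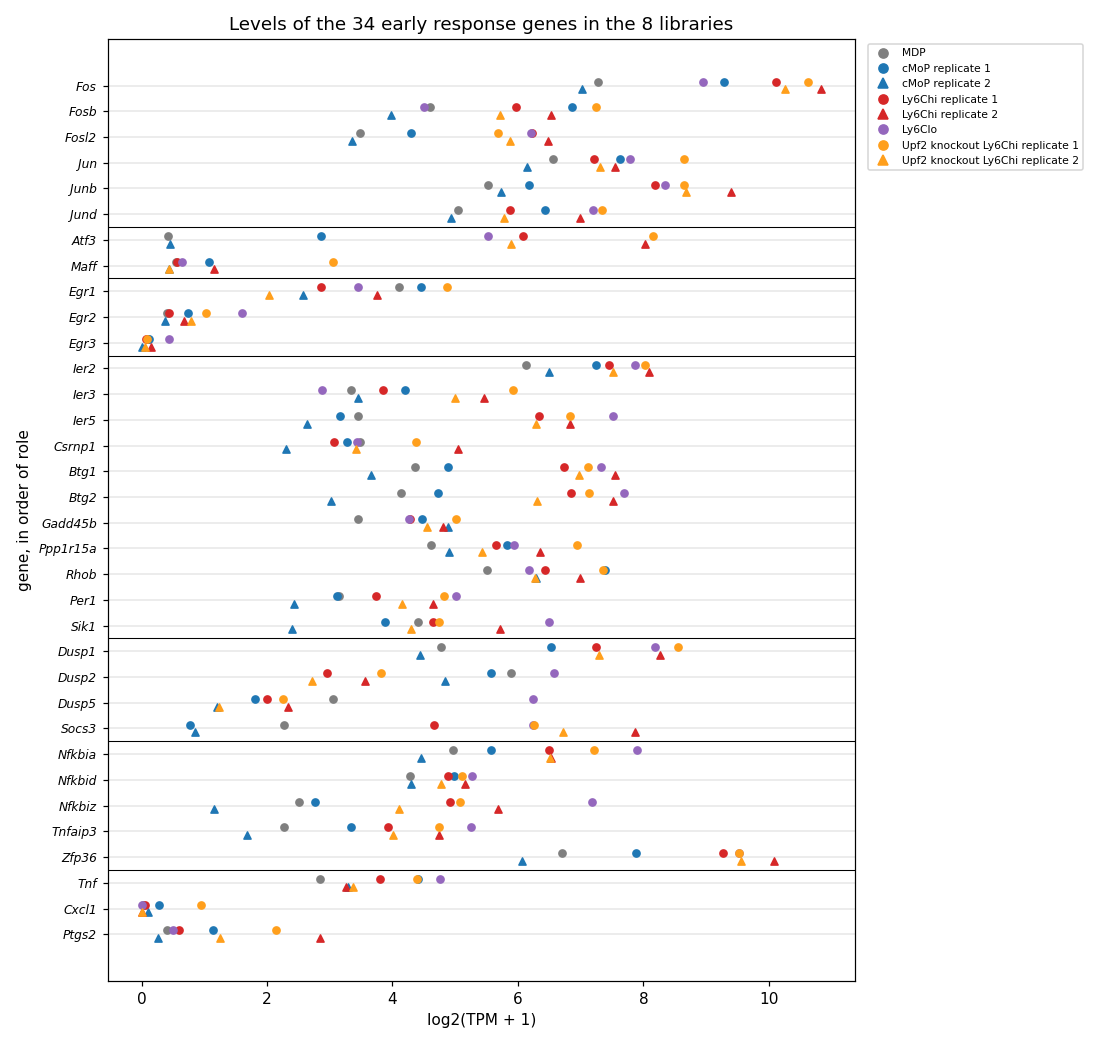
Levels of the 34 genes in each of the 8 libraries, in order of role, with log2(TPM + 1) on the horizontal axis, colour for the group and shape for the replicate (circle 1, triangle 2). Fos and Zfp36 reach the highest levels in Ly6Chi replicate 2, at 1818 and 1083 TPM, and Dusp2 and Dusp5 are highest in Ly6Clo, at 94.3 and 74.6 TPM.

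Among the AP-1 subunits, Fosl2 measured 10.1 TPM in MDP, 18.7 and 9.23 across cMoP, 73.6 and 88.6 across Ly6Chi, 72.9 for Ly6Clo, and 50.1 and 57.9 across knockout libraries. The progenitor libraries were all low and the monocyte libraries all high, with no overlap. Fosl2 rose 5.81-fold from cMoP to Ly6Chi in mean TPM, a difference of 2.53 ± 0.32 (SE) on log2(TPM + 1) with a limma adjusted p of 0.00198. Junb, the subunit that often opposes c-Jun, measured 44.8 TPM in MDP, 71.2 and 52.3 across cMoP, 289 and 676 across Ly6Chi, 325 for Ly6Clo, and 398 and 410 across knockout libraries. Its lowest monocyte library lay above its highest progenitor library, and the step from cMoP to Ly6Chi was 2.84 ± 0.39 (SE; limma adjusted p = 0.00268). Fos was the most abundant member in the control Ly6Chi libraries, while Zfp36 was in Ly6Clo. Fos measured 154 TPM in MDP, 626 and 129 across cMoP, 1103 and 1818 across Ly6Chi, 491 for Ly6Clo, and 1570 and 1229 across knockout libraries. The cMoP replicates differed 4.87-fold, so that 1 cMoP library lay above the Ly6Clo library and the other below MDP. Its difference between cMoP and Ly6Chi was 2.31 ± 0.71 (SE; limma adjusted p = 0.0363), and the call was lost in 7 of 14 alternatives, among them leaving out cMoP replicate 2 or either Ly6Chi replicate.

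Fosb, Jun and Jund were not called in any comparison. Fosb, a close relative of Fos, ranged from 14.7 TPM in cMoP replicate 2 to 150 in knockout replicate 1, with 115 TPM in the other cMoP library. Jun ranged from 69.8 to 402 TPM between the same libraries as Fosb. Jund, often described as a constitutive subunit, ranged from 29.7 to 161 TPM between those libraries. For all 3 the cMoP values bracketed or overlapped the Ly6Chi values.

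The AP-1 partner Atf3, a stress-induced repressor of inflammatory genes, measured 0.34 TPM in MDP, 6.25 and 0.37 across cMoP, 66.6 and 260 across Ly6Chi, 45.2 for Ly6Clo, and 282 and 58.1 across knockout libraries. Every monocyte library was above every progenitor library. The difference of Ly6Chi to cMoP was 5.40 ± 1.13 (SE; limma adjusted p = 0.0104), lost on leaving out cMoP replicate 2 or Ly6Chi replicate 2. Maff, a small Maf protein, stayed at 0.35 to 1.23 TPM in 7 libraries and reached 7.30 TPM in knockout replicate 1. Of the zinc-finger factors, Egr1 ranged from 3.10 to 28.2 TPM, both extremes lying in the knockout, and no comparison called it. Egr2 measured 0.29 to 1.04 TPM in 7 libraries and 2.04 TPM in Ly6Clo, where it missed the threshold (limma adjusted p = 0.0550), and Egr3 was highest, at 0.36 TPM, in the same library.

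Among the early regulators, Ier5, a cofactor of heat shock factor, showed the smallest p at this step. It measured 9.89 TPM in MDP, 7.92 and 5.23 across cMoP, 79.5 and 113 across Ly6Chi, 182 for Ly6Clo, and 112 and 76.8 across knockout libraries. Progenitors and monocytes did not overlap, and the Ly6Chi to cMoP difference was 3.68 ± 0.29 (SE; limma adjusted p = 0.000502). Btg1, an antiproliferative adaptor of the mRNA deadenylation machinery, measured 19.5 TPM in MDP, 28.4 and 11.6 across cMoP, 106 and 186 across Ly6Chi, 159 for Ly6Clo, and 137 and 125 across knockout libraries. It rose by 2.88 ± 0.45 (SE; limma adjusted p = 0.00376), with the groups apart. Btg2, its relative and a p53 target, measured 16.7 TPM in MDP, 25.5 and 7.08 across cMoP, 114 and 182 across Ly6Chi, 206 for Ly6Clo, and 140 and 77.8 across knockout libraries. It rose by 3.31 ± 0.60 (SE; limma adjusted p = 0.00642), again with no overlap between progenitors and monocytes.

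Per1, a clock gene that CREB induces, measured 4.38 to 7.88 TPM in the progenitors and 12.3 to 31.3 TPM in the monocytes, and rose by 1.42 (limma adjusted p = 0.0306). Sik1, a kinase that restrains CREB coactivators, measured 13.7 and 4.27 TPM in cMoP and 24.1 and 51.2 TPM in Ly6Chi (difference 2.04, limma adjusted p = 0.0256), and was highest in Ly6Clo at 89.0 TPM. The calls of both were lost on leaving out cMoP replicate 2 or Ly6Chi replicate 2, and that of Per1 also with each library centred on its median gene and with quantile normalisation. Ier2 (69.2 to 272 TPM), Ier3 (6.31 to 59.3), Csrnp1 (3.91 to 31.9), Gadd45b (9.88 to 31.4), Ppp1r15a (23.5 to 121) and Rhob (44.7 to 167) were not called at this step. Gadd45b, a stress sensor upstream of MAP kinases, was lowest in MDP, at 9.88 TPM, and Rhob, a small GTPase, was highest in cMoP replicate 1.

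The signal inhibitors split. Dusp1, the phosphatase that inactivates p38 and JNK, measured 26.5 TPM in MDP, 91.1 and 20.8 across cMoP, 151 and 306 across Ly6Chi, 290 for Ly6Clo, and 375 and 157 across knockout libraries. Its difference of Ly6Chi to cMoP was 2.27 ± 0.78 (SE) and just missed the threshold (limma adjusted p = 0.0504). Socs3, the inhibitor of cytokine receptors that signal through STAT3, measured 3.81 TPM in MDP, 0.70 and 0.80 across cMoP, 24.2 and 232 across Ly6Chi, 74.3 for Ly6Clo, and 75.2 and 104 across knockout libraries. It was nearly silent in both cMoP libraries and rose by 5.45 ± 0.96 (SE; limma adjusted p = 0.00573), although its Ly6Chi libraries differed 9.61-fold. Dusp2, a nuclear phosphatase of ERK and p38, moved the other way: 58.2 TPM in MDP, 46.4 and 27.5 across cMoP, 6.75 and 10.8 across Ly6Chi, 94.3 for Ly6Clo, and 13.1 and 5.55 across knockout libraries. All 4 Ly6Chi libraries, knockout included, lay below all others. As the only member lower at this step it is named after its values were seen: it fell by 1.94 on the log2 scale (SE 0.45, limma adjusted p = 0.0142), a call lost on leaving out cMoP replicate 1 or Ly6Chi replicate 1.

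Of the NF-kB and mRNA feedback genes, Nfkbiz, a nuclear IkB protein that licenses secondary response genes, measured 4.70 TPM in MDP, 5.82 and 1.23 across cMoP, 29.3 and 50.2 across Ly6Chi, 144 for Ly6Clo, and 32.9 and 16.2 across knockout libraries. It rose by 3.34 ± 0.61 (SE; limma adjusted p = 0.00653) with progenitors and monocytes apart. Zfp36, which encodes the RNA-binding protein tristetraprolin and speeds the decay of Tnf mRNA, measured 104 TPM in MDP, 235 and 65.8 across cMoP, 613 and 1083 across Ly6Chi, 733 for Ly6Clo, and 738 and 755 across knockout libraries. It rose by 2.70 ± 0.59 (SE; limma adjusted p = 0.0121), lost on leaving out Ly6Chi replicate 2. Nfkbia measured 30.1 TPM in MDP, 46.4 and 21.03 across cMoP, 89.1 and 91.0 across Ly6Chi, 238 for Ly6Clo, and 147 and 89.9 across knockout libraries. The difference of Ly6Chi to cMoP was 1.496 (limma adjusted p = 0.0231), lost on leaving out cMoP replicate 2 or either Ly6Chi replicate. Tnfaip3 measured 2.22 to 9.10 TPM in progenitors and 14.3 to 37.1 TPM in monocytes. Its call (difference 1.82, limma adjusted p = 0.0438) was lost in 10 of 14 alternatives. Nfkbid, the remaining nuclear IkB gene, measured 18.3 to 37.7 TPM over all libraries and was not called.

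The secreted and enzymatic products showed no call at this step. Tnf measured 6.20 TPM in MDP, 20.2 and 8.80 across cMoP, 12.96 and 8.53 across Ly6Chi, 26.02 for Ly6Clo, and 20.1 and 9.34 across knockout libraries, so that the libraries of cMoP, Ly6Chi and the knockout overlapped, with MDP lowest and Ly6Clo highest. Ptgs2, the inducible cyclooxygenase, was at 0.20 to 3.42 TPM in 7 libraries and at 6.15 TPM in Ly6Chi replicate 2. Cxcl1, a neutrophil attractant, was listed at 0 in 3 libraries.

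From MDP to cMoP, no member was called higher or lower, while 1.35% of all genes tested were higher and 2.52% lower in cMoP. Gadd45b (difference 1.23 ± 0.34, SE; limma adjusted p = 0.108) and Dusp5 (−1.55 ± 0.49, SE; limma adjusted p = 0.137) had an unadjusted p under 0.05, as did 26.9% of all genes tested. The cMoP values lay on both sides of the single MDP value in 16 of the 32 members tested and in 22.1% of all genes tested. Without a replicate, the MDP library was assumed to vary like the others. The members' median difference was 0.28 and that over all genes −0.28. With each library centred on its median gene, 408 genes were higher and 295 lower in place of 177 and 331, and still no member was called.

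Ly6Chi and MDP have a like 3′ lean, and their difference does not use the level in cMoP, although the cMoP libraries enter the spread that the test uses. Here 14 members were higher and Dusp2 was lower, against 18.2% of all genes tested higher and 25.6% lower. The members' median difference was 1.38 and that over all genes −0.14. The 10 largest differences were Atf3 (6.63 ± 1.39, SE; limma adjusted p = 0.0128), Socs3 (3.99 ± 1.18; 0.0385), Junb (3.27 ± 0.48; 0.00414), Fos (3.19 ± 0.87; 0.0305), Ier5 (3.14 ± 0.35; 0.00184), Btg2 (3.04 ± 0.74; 0.0211), Dusp1 (2.97 ± 0.95; 0.0496), Zfp36 (2.96 ± 0.73; 0.0216), Fosl2 (2.88 ± 0.39; 0.00320) and Nfkbiz (2.79 ± 0.75; 0.0288). Btg1, Ier2, Nfkbia and Gadd45b followed, with differences of 2.79, 1.64, 1.55 and 1.10. The comparison shares its Ly6Chi libraries with that to cMoP, so the values stand side by side and are not independent. Leaving out Ly6Chi replicate 2 left 5 members higher, and leaving out Ly6Chi replicate 1 or either knockout library left 9. The call of Socs3 was lost on leaving out either cMoP library.

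**Figure D2:**
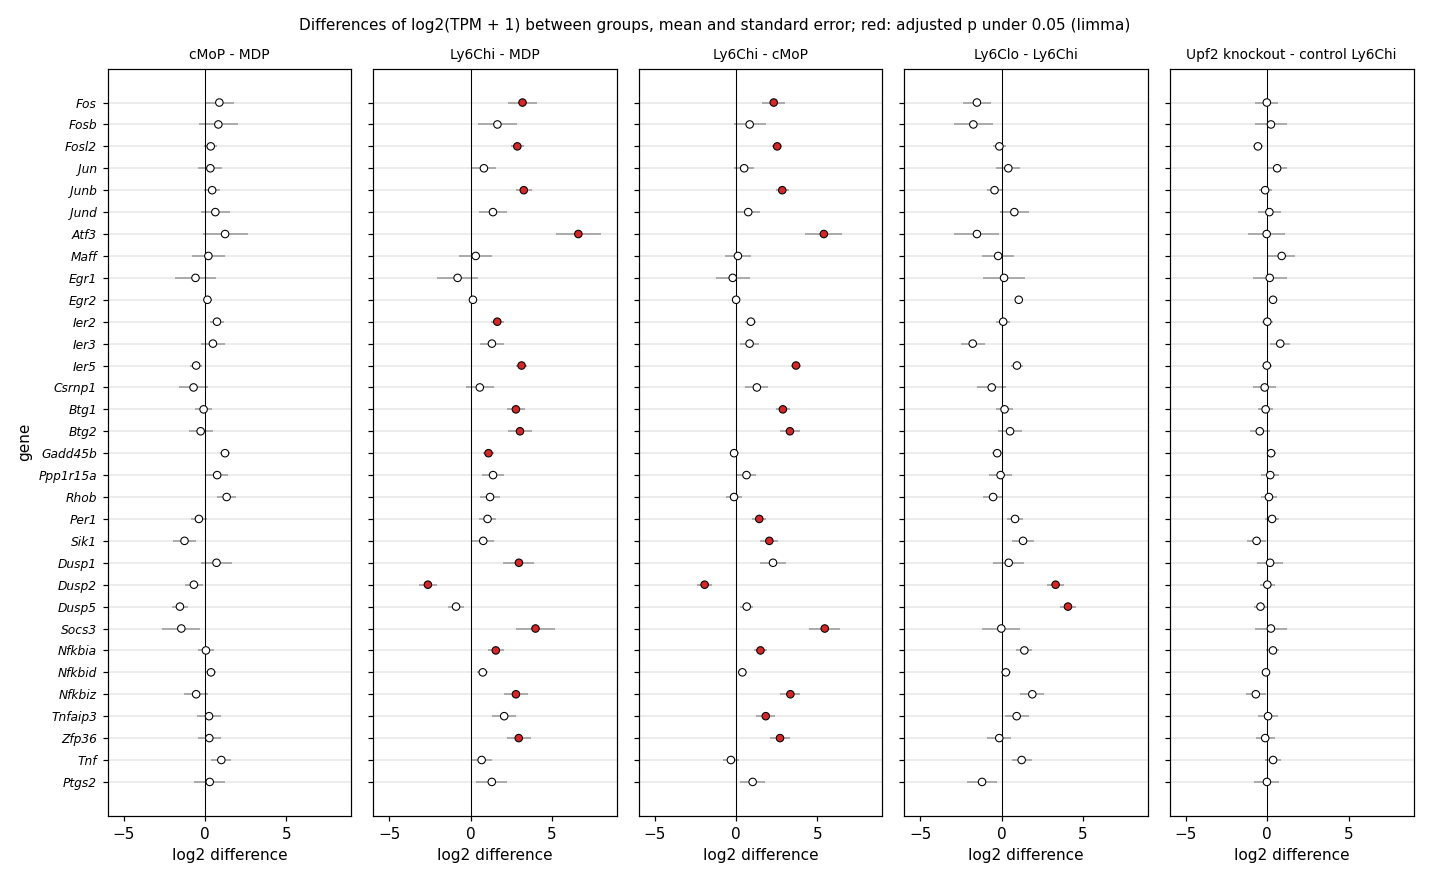
Differences between groups on log2(TPM + 1) for the 32 genes tested, 1 panel per comparison, with points for the estimate and horizontal lines for 1 standard error; red points have a limma adjusted p under 0.05. Red points fill the panels of Ly6Chi against MDP and against cMoP, 15 in each, while the Ly6Clo panel holds only Dusp2 and Dusp5 and the knockout panel none.

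Ly6Clo monocytes differed from Ly6Chi monocytes in Dusp5 and Dusp2, both phosphatases of MAP kinases in the nucleus. Dusp5, which inactivates ERK, measured 7.33 TPM in MDP, 2.52 and 1.31 across cMoP, 2.99 and 4.02 across Ly6Chi, 74.6 for Ly6Clo, and 3.79 and 1.35 across knockout libraries. The Ly6Clo library stood alone, 21.3-fold above the Ly6Chi mean, with a difference of 4.08 ± 0.49 (SE; limma adjusted p = 0.00507). Dusp2 was 10.7-fold higher than in Ly6Chi (difference 3.32 ± 0.55, SE; limma adjusted p = 0.0155), a call lost on leaving out Ly6Chi replicate 1. The 2 calls of 32, 6.25%, lie near the 5.9% of all genes tested that were higher, and none was lower against 7.12% of all genes. Ly6Clo has 1 library, which was assumed to vary like the others.

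Members that point each way without passing the test were Ier3, at 6.31 TPM below both Ly6Chi libraries (difference −1.78, limma adjusted p = 0.185), and Nfkbiz, at 144 TPM above them (1.88, limma adjusted p = 0.170). Nfkbia, at 238 TPM, had a difference of 1.39 (limma adjusted p = 0.130), and Fos, at 491 TPM, one of −1.53 (limma adjusted p = 0.323). The highest value of all 8 libraries lay in Ly6Clo for 12 of the 32 members tested and 27.6% of all genes tested, among the members Ier5, Btg2, Nfkbia, Nfkbiz, Tnfaip3 and Tnf. Neutrophil markers summed to 5486 TPM in this library against 1761 and 2176 TPM in Ly6Chi, macrophage markers to 978 TPM against 140 and 134, and erythroid and platelet markers to 324 TPM against 35.2 and 187. Dendritic cell markers summed to 365 TPM against 20.98 and 20.55. Of the dendritic cell sum, Itgax and Cd209a made up 186 and 168 TPM, Clec9a 7.76 TPM, and each other marker at most 1.68 TPM. Xcr1 alone of the dendritic cell list was lower, at 0.09 TPM against 0.14 and 0.13. Of the neutrophil sum, S100a8 and S100a9, which monocytes also express, made up 1544 and 2183 TPM. Mmp8 alone of that list was lower, at 28.2 TPM against 151 and 145. Of the macrophage sum, Adgre1 made up 385 TPM, against 130 and 126 in Ly6Chi. Whether such cells were present, and their part in the Ly6Clo values, was not tested.

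In the Upf2 knockout, no member was called, and none had an unadjusted p under 0.05, against 14.6% of all genes tested. Over all genes, 0% were higher and 0.00762% lower at an adjusted p under 0.05, so this comparison called 1 gene in all. The smallest p among the members was that of Fosl2, at 50.1 and 57.9 TPM in the knockout and 73.6 and 88.6 TPM in the controls (difference −0.58, 95% interval −1.36 to 0.21). The differences of most members were known only within wide limits. The 95% interval lay inside −1 to 1 for 5 members and inside −2 to 2 for 22 of 32. The narrowest interval was that of Egr2 (−0.17 to 0.88), followed by those of Nfkbid (−0.73 to 0.58), Gadd45b (−0.44 to 0.91) and Ier5 (−0.74 to 0.69). Egr2 was barely expressed, at 0.35 and 0.6 TPM in the controls and 1.04 and 0.73 TPM in the knockout. The 1 added before the logarithm shrinks differences at such levels, so its narrow interval does not bound its fold closely. The widest interval was that of Atf3 (−2.83 to 2.75), whose 4 libraries were high and low in both groups. The next widest were those of Egr1 (−2.43 to 2.73), Fosb (−2.18 to 2.64) and Socs3 (−2.15 to 2.60), and that of Fos ran from −1.79 to 1.73.

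Within each replicated group, nearly the whole module moved together between the 2 libraries. In cMoP, replicate 1 exceeded replicate 2 in 30 of 32 members, Gadd45b and Socs3 being the exceptions, and in 69.6% of all genes tested, with a median difference of 1.04 against 0.24 over all genes. In Ly6Chi, replicate 2 exceeded replicate 1 in 31 of 32 members, all but Tnf, and in 33.9% of all genes, with a median of 0.71 against −0.06. In the knockout, replicate 1 exceeded replicate 2 in 28 of 32 members, the exceptions being Fosl2, Zfp36, Junb and Socs3, and in 32.6% of all genes, with a median of 0.87 against −0.09.

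A difference of at least 1 on log2(TPM + 1) was reached by 16 members in cMoP, all higher in replicate 1, where 6.6% of all genes were higher by as much in replicate 1 and 0.891% in replicate 2. In Ly6Chi it was reached by 9 members, all higher in replicate 2, against 1.2% of all genes in that direction and 0.701% in the other. In the knockout it was reached by 12 members, all higher in replicate 1, against 1.04% and 0.914% of all genes. The largest ratios were those of Atf3 in cMoP (6.25 and 0.37 TPM, 16.9-fold), Ptgs2 in Ly6Chi (0.51 and 6.15 TPM, 12.1-fold higher in replicate 2) and Maff in the knockout (7.30 and 0.36 TPM, 20.3-fold), each with 1 library under 1 TPM. Next came Fosb in cMoP (115 and 14.7 TPM, 7.83-fold), Socs3 in Ly6Chi (24.2 and 232 TPM, 9.61-fold higher in replicate 2) and Egr1 in the knockout (28.2 and 3.10 TPM, 9.11-fold). These are differences between 2 libraries each and were not tested.

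**Figure D3:**
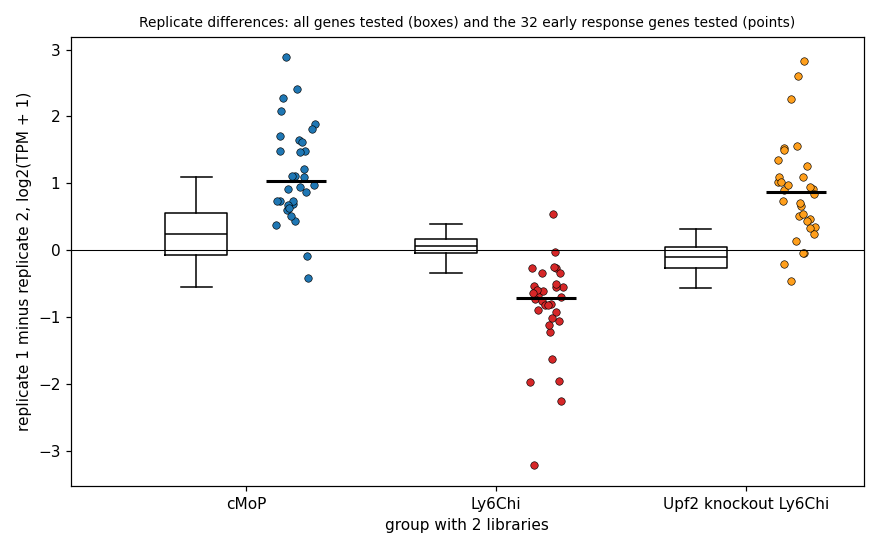
Replicate 1 minus replicate 2 on log2(TPM + 1) in the 3 groups with 2 libraries: boxes show the median and quartiles over all 13126 genes tested, with whiskers from the 5th to the 95th percentile, and points the 32 members with a bar at their median. The points sit above 0 in cMoP and the knockout and below 0 in Ly6Chi, with medians of 1.04, 0.87 and −0.71, while the boxes stay near 0.

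The spread left within groups was correspondingly large. The residual standard deviation of the fit had a median of 0.790 over the members and 0.201 over all genes tested. All 32 members lay above the median of all genes and 22 above their 95th percentile, from Egr2 at the 52.3rd to Atf3 at the 99.5th percentile. Of 33 further immediate early and primary response genes, 29 were higher in replicate 1 of cMoP, 27 in replicate 2 of Ly6Chi and 21 in replicate 1 of the knockout, and of 20 inflammatory outputs 16, 17 and 12. The other lists did not follow throughout. In the same order the counts were 5, 5 and 3 of 9 other AP-1 family genes, 8, 4 and 0 of 11 NF-kB subunits and kinases, 17, 6 and 1 of 21 MAP kinase pathway genes, 18, 7 and 1 of 20 receptor signalling genes, and 15, 8 and 2 of 17 other negative regulators.

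Some other markers moved alongside. Neutrophil markers summed to 520 and 431 TPM in replicates 1 and 2 of cMoP, to 1761 and 2176 TPM in Ly6Chi and to 2615 and 1947 TPM in the knockout, and 9, 9 and 10 of the 11 markers moved in the direction of the module. S100a8, S100a9, Csf3r and Lcn2 of this list are also expressed by monocytes, and none of the 11 was at 0. Erythroid and platelet markers summed to 26.9 and 3.56, 35.2 and 187, and 45.7 and 66.2 TPM, the last pair against the module, with Ppbp at 0 in MDP, both cMoP libraries and in knockout replicate 2 and Pf4 at 0 in knockout replicate 1. Markers of T and NK cells summed to at most 5.56 TPM in any library. Further marker lists did not follow throughout. In the same order of groups, 2, 5 and 6 of 6 granule protein markers and 6, 3 and 2 of 6 Ly6Chi markers moved with the module. Of 4 eosinophil, basophil and mast cell markers, 4, 3 and 1 did. Over all genes tested, 69.6%, 33.9% and 32.6% moved in those directions. Of 12 heat shock genes, which respond to handling, 9 were higher in replicate 2 of cMoP, against the module, 11 in replicate 2 of Ly6Chi and 12 in replicate 1 of the knockout, with it. The 3′ lean was higher in cMoP replicate 2, Ly6Chi replicate 2 and knockout replicate 1, so it too moved against the module in cMoP and with it in the other groups. The part of any of these in the replicate differences was not tested.

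Other genes of the same pathways, from lists given by function, were compared as background to the module, and their counts at the step from cMoP to Ly6Chi stand against the 32.3% of all genes higher and 23.3% lower there. Of 33 other immediate early and primary response genes 19 rose and 1 fell. The largest rises were those of the orphan nuclear receptor Nr4a1 (mean 4.10 to 145 TPM, difference 5.05 ± 0.68, SE; limma adjusted p = 0.00248), the mRNA decay factor Zfp36l1 (0.275 to 10.6 TPM) and the repressor Bhlhe40 (1.26 to 17.5 TPM). The proto-oncogene Myc fell, from 132 to 7.04 TPM (difference −4.04 ± 0.24, SE; limma adjusted p = 0.000247). Of 9 further AP-1 family genes 5 rose, among them Batf3 (0.015 to 19.3 TPM) and Maf (0.02 to 4.16 TPM), and none fell. Batf3 and Maf were nearly absent from cMoP and passed the filter on low values only through other libraries. Keeping only genes of at least 1 TPM in every library left 1 of these AP-1 family genes higher. With quantile normalisation 2 of them fell, and with each library centred on its median gene 1 fell. The list medians were 1.56 and 0.98, against 0.19 over all genes.

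Upstream, 13 of 21 MAP kinase and serum response factor pathway genes rose and none fell, with Map3k8, the kinase that carries Toll-like receptor signals to ERK, rising from 2.65 to 34.3 TPM, Map3k1 from 12.3 to 47.5 TPM and Mkl1 from 21.9 to 84.1 TPM. With each library centred on its median gene, 11 rose and 1 fell. Of 11 NF-kB subunits and IkB kinases 9 rose and none fell. The largest rises were those of Relb (1.04 to 20.4 TPM, difference 3.39 ± 0.18, SE; limma adjusted p = 0.000191), Rel (6.39 to 31.7 TPM) and Nfkb2 (10.1 to 45.1 TPM), while Nfkbib and Ikbkg did not pass. Of 20 genes that carry Toll-like and tumour necrosis factor receptor signals 15 rose, led by the receptor Tnfrsf1b (38.4 to 320 TPM), the kinase Irak2 (8.21 to 53.6 TPM) and the adaptor Tab2 (46.3 to 142 TPM). Leaving out Ly6Chi replicate 1 left 6 of the 21, and 9 of the 20, higher.

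Downstream, 10 of 17 other negative regulators of NF-kB rose, led by the ubiquitin ligases Birc3 (17.4 to 103 TPM) and Itch (20.8 to 79.8 TPM) and the endonuclease Zc3h12a (6.45 to 24.2 TPM). Of 20 inflammatory outputs 14 rose and none fell, led by the costimulatory receptor Cd40 (0.44 to 38.3 TPM), the chemokine Ccl2 (3.00 to 46.2 TPM) and the inflammasome sensor Nlrp3 (4.88 to 46.4 TPM). Heat shock genes went the other way, with 6 of 12 falling and none rising, led by Hspd1 (579 to 84.4 TPM), Hsp90aa1 (1110 to 197 TPM) and Hsph1 (89.6 to 15.3 TPM). Leaving out Ly6Chi replicate 1 left 6 negative regulators higher, and keeping only genes of at least 1 TPM in every library left 7 outputs.

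Between Ly6Chi and Ly6Clo, where 5.9% of all genes were higher and 7.12% lower, 4 other immediate early genes rose and none fell, namely Zfp36l1 (10.6 to 141 TPM), Bhlhe40 (17.5 to 80.5 TPM), Crem (3.72 to 16.4 TPM) and Cebpb (272 to 565 TPM). Jdp2 (14.7 to 67.9 TPM) and Maf (4.16 to 10.3 TPM) rose among the AP-1 genes, Nfkb2 (45.1 to 90.5 TPM) among the subunits and Mapk11 (0.455 to 1.75 TPM) among the kinases. The signalling adaptor Traf1 rose from 0.975 to 41.9 TPM (difference 4.44 ± 0.20, SE; limma adjusted p = 0.000291), with Tnfrsf1b (320 to 1004 TPM) and Ripk2 (16.0 to 36.7 TPM), and the A20-binding protein gene Tnip3 from 2.58 to 11.2 TPM. Of the outputs, Cd83 (0.845 to 82.1 TPM, difference 5.49 ± 0.34, SE; limma adjusted p = 0.000653), Cxcl16 (2.06 to 24.3 TPM) and Clec4e (27.5 to 80.4 TPM) rose and Tnfaip2 fell (152 to 31.0 TPM). With quantile normalisation 2 outputs rose and 2 fell, and with each library centred on its median gene 4 subunits rose. Leaving out Ly6Chi replicate 1 left 1 of the 4 immediate early genes, and leaving out knockout replicate 1 left 0 of the 3 receptor signalling genes. With 0.1 in place of 1 added before the logarithm, Mapk11 and Tnip3 lost their calls. None of 12 heat shock genes was called. With only the 2 groups compared, the counts grew to 13 other immediate early genes, 8 subunits, 7 MAP kinase pathway genes, 6 negative regulators and 6 heat shock genes higher, and 5 outputs lower.

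From MDP to cMoP, Klf4 (15.8 to 79.8 TPM) and Cebpb (16.99 to 57.9 TPM) rose, and Zfp36l1 (5.54 to 0.275 TPM), Mapk11 (1.23 to 0.065 TPM), the deubiquitinase gene Otud7b (4.75 to 1.02 TPM) and Marcksl1 (121 to 13.4 TPM) fell. The lists held no other call at that step. Klf4 and Cebpb lost their calls on leaving out knockout replicate 1. With 0.1 in place of 1 added before the logarithm, Mapk11 and Otud7b lost theirs. Keeping only genes of at least 1 TPM in every library removed the call of Zfp36l1. Without cMoP replicate 1, 8 MAP kinase pathway genes, 6 NF-kB subunits and kinases, 6 other negative regulators, 5 receptor signalling genes and 5 other immediate early genes were lower in cMoP. In the knockout no list held a call.

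Retention of introns was read from reads across exon-intron boundaries (U) relative to spliced reads at the same intron (S). U sums the reads at both ends of an intron, whereas S is the larger of the spliced counts at either end. U per 100 S is therefore not a ratio of unspliced to spliced transcripts. The members have 143 listed introns in 29 genes, all of which match GENCODE introns, while Ier2, Ier5, Jun, Jund and Rhob have none listed. Tested were 69 introns of 15 members, those without a mark in the deposited tables for a known exon or an antisense gene (unmarked), where U and S together reached 20 in each library. Over these, 37.3 boundary reads were found per 100 spliced reads in MDP, 33.6 and 30.2 across cMoP, 25.5 and 18.7 across Ly6Chi, 24.2 for Ly6Clo, and 19.0 and 20.7 across knockout libraries. Over all unmarked introns, counted without a filter on reads, there were 4.14 to 7.89. The tested member introns needed at least 20 boundary reads in all, so these are not like sets. The member sums follow the genes with the most reads, which differ between libraries, and single introns do not share their order: the median log2 difference per member intron was 0.52 from MDP to cMoP and 0.54 from cMoP to Ly6Chi, against −0.39 and 0.38 over all introns tested. As boundary reads also come from RNA that is not yet spliced, retained introns and unfinished transcripts cannot be told apart here.

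No member intron was called in any comparison by edgeR's quasi-likelihood test. Of all 48132 introns tested, 0% were called between cMoP and MDP, 0.0145% between Ly6Chi and cMoP, 0% between Ly6Clo and Ly6Chi and 0.00208% between knockout and control. At an unadjusted p under 0.05, 12, 11, 22 and 2 of the 69 member introns stood out in these comparisons, 17.4%, 15.9%, 31.9% and 2.90%, against 8.35%, 10.9%, 4.97% and 6.94% of all introns. DESeq2 called 0 member introns and gave 11, 8, 14 and 0 at an unadjusted p under 0.05. Introns of 1 gene share its transcripts, and some overlap, so these counts rest on far fewer genes. With U and S scaled apart by TMM, 4 introns were called lower in Ly6Chi than cMoP, 3 of Nfkbia and that of Ier3, and 4 were called lower in Ly6Clo than Ly6Chi, 3 of Per1 and 1 of Sik1.

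Introns of 1 gene tended to share a direction. From MDP to cMoP, U relative to S was lower in all 4 introns of Fosb (median log2 difference −2.37) and both of Fos (−1.74), and higher in 17 of 18 of Per1 (1.76) and 9 of 11 of Sik1 (1.70). Over its unmarked introns, Per1 had 9.34 boundary reads per 100 spliced reads in MDP. It had 40.6 in cMoP replicate 1 and 8.33 in cMoP replicate 2, so only replicate 1 lay above MDP. For Fosb, Fos and Sik1, both cMoP libraries lay on the same side of MDP. The smallest adjusted p among the introns of these genes between cMoP and MDP was 0.597, in edgeR. Between Ly6Chi and Ly6Clo, all 18 tested introns of Per1 had lower U relative to S in Ly6Clo (median log2 difference −1.98), as had all 11 of Sik1 (median −1.44). Counted over its unmarked introns, Per1 had 9.72 boundary reads per 100 spliced reads in Ly6Clo, against 22.6 and 62.7 in Ly6Chi, and Sik1 6.72 against 14.1 and 25.5. The 2 introns of Fos (median 2.03), 4 of Fosb (1.20) and 3 of Dusp1 (1.10) were higher in Ly6Clo. Fos had 27.6 boundary reads per 100 spliced reads there and 10.8 and 4.27 in Ly6Chi. All 3 introns of Fosl2 (median −1.58) and both of Csrnp1 (−1.03) were lower. Those of Csrnp1 rest on few reads, with 4 and 3 boundary reads in Ly6Clo, 5 and 3 in Ly6Chi replicate 1, and 38 and 24 in Ly6Chi replicate 2. The smallest adjusted p among these introns between Ly6Clo and Ly6Chi was 0.948, in edgeR, so none is a call.

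**Figure D4:**
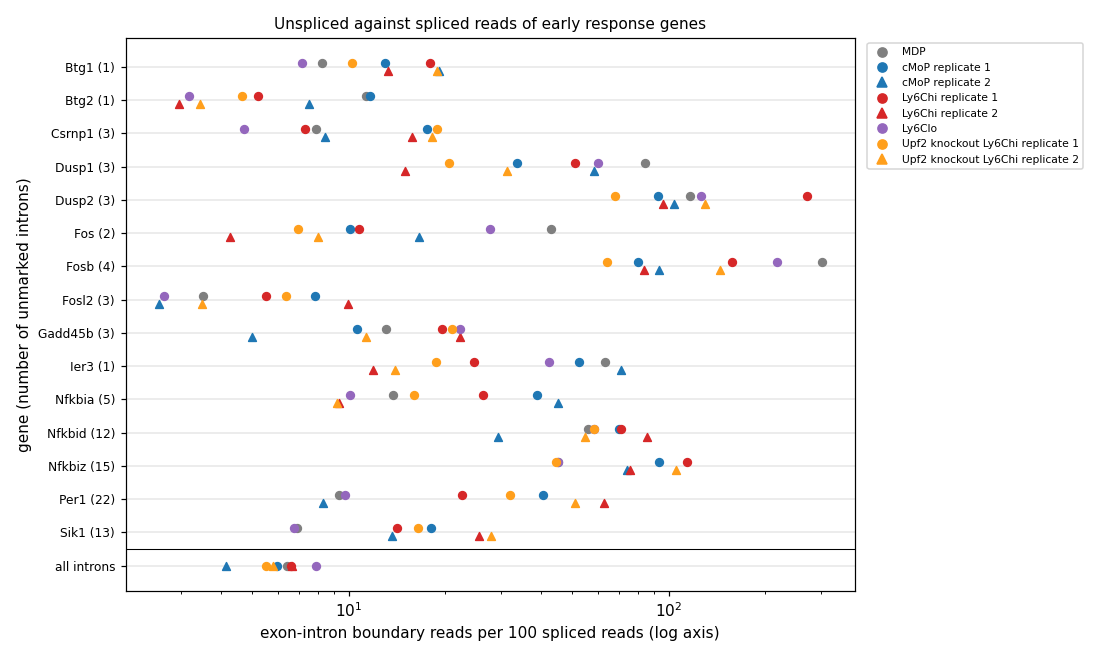
Boundary reads per 100 spliced reads, on a log axis, summed over the unmarked introns of each of the 15 genes with tested introns, with the number of those introns in brackets, and over all unmarked introns in the bottom row. Colours mark groups and shapes replicates: Fosb and Dusp2 lie between 64.2 and 301, all introns between 4.14 and 7.89, and Sik1 is lowest in Ly6Clo (6.72) and MDP (6.87).

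The tested member introns with the highest retention ratio, the authors' coverage of the intron divided by that coverage plus the spliced reads, lay in 4 genes. The first of 3 introns of Fosb, between coding exons at chromosome 7, 19307324 to 19309305 on the minus strand of mm10, had a ratio of 0.964 in MDP, 0.730 and 0.771 across cMoP, 0.922 and 0.758 across Ly6Chi, 0.905 for Ly6Clo, and 0.517 and 0.865 across knockout libraries. Of the replicate pairs, those of the knockout were farthest apart. Spliced reads over this intron numbered 2 in MDP, 10 in cMoP replicate 2, 12 in Ly6Chi replicate 1 and 5 in Ly6Clo. They numbered 18 in knockout replicate 2 and 80 to 246 in the other libraries, so several ratios rest on few reads. In every library more boundary reads lay at its 3′ end than at its 5′ end, for example 95 and 39 in MDP. The second of 3 introns of Dusp2, between coding exons at chromosome 2, 127336899 to 127337248 on the plus strand, had ratios from 0.346 to 0.708, with the extremes in knockout replicate 1 and Ly6Chi replicate 1. Its spliced reads numbered 38 and 7 in those libraries, so the highest ratio rests on few reads. The last of 13 introns of Nfkbiz, between coding exons at chromosome 16, 55812784 to 55813949 on the minus strand, had ratios of 0.243 in MDP and 0.322 in Ly6Clo, and of 0.392 to 0.664 in the other libraries. Then came 2 introns of Nfkbid, on the plus strand of chromosome 7. The tenth of 11, between coding exons at 30427185 to 30427425, had ratios of 0.259 to 0.498, and the first, in the 5′ untranslated region at 30422496 to 30423402, ratios of 0.224 to 0.518. Both were lowest in cMoP replicate 2.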

How the data were processed

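RNA of 8 libraries was sequenced as paired reads. Per the submitters' processing notes, FastQC, Trimmomatic, STAR 2.5.2a, RSEM and the build mm10 were used (hg38 is also named). The deposited expression table is labelled FPKM, but each column sums to 1000000 within rounding, which holds for TPM and not in general for FPKM, so its values are taken here as TPM. The deposited intron tables give counts of spliced and boundary reads, the authors' coverage signal of each intron and a retention ratio, a fraction from 0 to 1.

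Levels were compared by limma 3.58.1 (R 4.3.3) with a trend on log2(TPM + 1), over all 8 libraries with 3 residual degrees of freedom, and Benjamini-Hochberg adjustment over the 13126 genes that reached 1 TPM in 2 or more libraries. A fold is a ratio of mean TPM, and the log2 scale understates changes of low genes. Boundary relative to spliced counts were compared by edgeR 4.0.16 with its quasi-likelihood test, and DESeq2 1.42.0 as an alternative, over 48132 introns with both counts together at least 20 in every library and at least 20 boundary reads in all. Other alternatives were the pseudocount, filters, scaling and leaving out libraries. P-values measure the spread between these libraries, which may be technical. Scripts were tested on simulated data. Members and lists were chosen with earlier results of these data known. Full statistics are given for up to 10 members a comparison, those with the largest differences among called members whose groups do not overlap, and names for up to 3 genes a direction in each pathway list. A gene that this rule would name is not reported here. Of the introns, those called and the 5 with the highest mean ratio are named. Where a count of 5 or fewer made further names possible, they were chosen after the values were seen.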

Additional observations from a re-analysis of the deposited data

How the results depend on the processing

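No called member reversed its direction in any alternative. Of the 15 members called between Ly6Chi and cMoP, 7 kept their call in every alternative (Fosl2, Junb, Ier5, Btg1, Btg2, Socs3 and Nfkbiz), as did 1 of 2 between Ly6Clo and Ly6Chi (Dusp5) and 4 of 15 between Ly6Chi and MDP (Fosl2, Junb, Ier5 and Btg1). Without the filter on low values, 7 members were higher and 0 lower in Ly6Chi than cMoP, in place of 14 and 1, and 4 were higher and 0 lower than in MDP, in place of 14 and 1. With only the 2 groups compared, 1 member was higher in cMoP than MDP in place of 0, 7 were higher and 2 lower in Ly6Clo than Ly6Chi in place of 2 and 0, and 22 were higher and 2 lower in Ly6Chi than MDP. Leaving out 1 library at a time gave 0 to 1 members higher in cMoP than MDP, 7 to 18 higher and 0 to 1 lower in Ly6Chi than cMoP (7 without Ly6Chi replicate 2 and 8 without cMoP replicate 2), 1 to 4 higher and 0 to 1 lower in Ly6Clo than Ly6Chi, and 5 to 15 higher and 0 to 1 lower in Ly6Chi than MDP. For the member introns it gave 0 to 2 called between cMoP and MDP, 0 to 18 between Ly6Chi and cMoP (18 without cMoP replicate 1) and 0 to 8 between Ly6Clo and Ly6Chi (8 without either cMoP replicate), in place of 0. With TMM scaling of boundary and spliced counts apart, 4 introns were called in each of the latter 2 comparisons. The cause of these shifts was not tested.

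With the replicate number as a block, chosen for single members and lists after the data had been seen, 15 members were higher and 1 lower in Ly6Chi than cMoP, 0 and 0 differed in the knockout, and 0 introns were called. Deviations of same-numbered libraries correlated at 0.063, −0.136 and −0.130 over all genes. These weak correlations gave no sign that the numbers pair the libraries, but cannot exclude it. No paired analysis was possible because MDP and Ly6Clo have 1 library each for the comparisons that involve them. Each group has at most 2 libraries, and the effect of read depth on the calls was not tested.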
